A study of Sus scrofa with 6 samples.

Results

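The genes described here were the 4 TEAD transcription factors (TEAD1, TEAD2, TEAD3 and TEAD4) and 6 genes of the Hippo pathway that act on them: YAP1, WWTR1 (which encodes TAZ), VGLL2, LATS1, LATS2 and WWC1 (which encodes KIBRA). They were 10 of the 25859 genes with a window in the RefSeq annotation of the pig assembly Sscrofa11.1, where a window runs from 2 kb before the start of a gene to its end. The members were chosen by name as the TEAD genes and pathway genes, except WWC1. It was chosen by the fall of counts in 1 of its intron regions between stages in these same libraries. Its stage values are therefore given as a description without a test, and the stage counts are over the other 9 genes. The comparison of the muscle difference between stages is the exception and counts all 10. Peaks of the libraries that overlapped were merged into regions, and the 10 windows held 214 of the 294825 regions, of which 75 (of 78533 in all) had a called peak in each of the 6 libraries.

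Single-cell ATAC-seq counts the cuts that the Tn5 transposase makes in open chromatin, cell by cell. The 6 libraries came from somites at embryonic day 18 (E18) and 21 (E21) and from myotomes at day 28 (E28), each from purebred Tibetan pigs (ZZ) and from Duroc × Tibetan crosses (DZ), which share the female parent's breed and differ in the sire's. A library pooled 5 embryos of 1 sow, and there was 1 library per stage and breed, so the 2 libraries of a stage stood in as its replicates after a term for breed and p-values measure only the spread between these libraries. Tissue and stage changed together at E28 and cannot be told apart. After barcodes outside 2000 to 30000 counts were left out, 9286 to 11243 barcodes and 89816504 to 133037579 counts remained per library. Peaks had been called in each library separately, and they covered 168 to 191 Mb at E18, 147 to 158 Mb at E21 and 102 to 108 Mb at E28, so a window's counts at E28 come from less sequence, and the covered length is given beside the main stage differences. Of the 56851 kept barcode sequences, 1921 occurred in more than 1 library.

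The Hippo pathway is a kinase cascade that restrains tissue growth. MST kinases activate the LATS kinases, LATS1 and LATS2 phosphorylate the coactivators YAP1 and TAZ and hold them in the cytoplasm, and WWC1 is a scaffold that promotes LATS activity at the cell cortex. When the cascade is off, YAP1 and TAZ enter the nucleus and bind TEAD factors, which recognise the sequence CATTCC. In skeletal muscle the TEAD motif is known from promoters of muscle genes as the M-CAT element, TEAD4 is a direct target of myogenic basic helix-loop-helix factors, and VGLL2, a vestigial-like cofactor without DNA-binding activity of its own, pairs with TEAD proteins in place of YAP1 and TAZ. Myogenic factors such as MYOD1 and MYOG bind E-boxes, and CAGCTG is an E-box that they favour.

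6 intron regions are shown here because they were called between stages, between cells or in both, and the text returns to each of them. Their central 300 bases, from RefSeq's Sscrofa11.1 genome and given 5′ to 3′ on the + strand, follow with the distance from the gene's start. Capitals mark the TEAD motif (CATTCC, or GGAATG on the other strand) and the E-box CAGCTG, which reads the same on both strands and can share its last G with GGAATG. The first 4 were more open in cells with open muscle genes and the last 2 were less open in them.
TEAD4 +31.3 kb, chr5:67136094-67136393: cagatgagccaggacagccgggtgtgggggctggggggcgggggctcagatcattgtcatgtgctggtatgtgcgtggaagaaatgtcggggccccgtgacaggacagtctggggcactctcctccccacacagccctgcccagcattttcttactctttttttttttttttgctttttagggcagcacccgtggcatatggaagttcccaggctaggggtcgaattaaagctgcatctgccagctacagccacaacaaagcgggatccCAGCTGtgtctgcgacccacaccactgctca
WWTR1 +69.8 kb, chr13:89819550-89819849: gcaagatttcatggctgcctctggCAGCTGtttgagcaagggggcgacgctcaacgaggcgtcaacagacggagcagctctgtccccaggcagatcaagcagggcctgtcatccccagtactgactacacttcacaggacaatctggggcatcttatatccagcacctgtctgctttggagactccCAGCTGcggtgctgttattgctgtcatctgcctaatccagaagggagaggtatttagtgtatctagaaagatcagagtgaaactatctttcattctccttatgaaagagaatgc
WWTR1 +65.9 kb, chr13:89823490-89823789: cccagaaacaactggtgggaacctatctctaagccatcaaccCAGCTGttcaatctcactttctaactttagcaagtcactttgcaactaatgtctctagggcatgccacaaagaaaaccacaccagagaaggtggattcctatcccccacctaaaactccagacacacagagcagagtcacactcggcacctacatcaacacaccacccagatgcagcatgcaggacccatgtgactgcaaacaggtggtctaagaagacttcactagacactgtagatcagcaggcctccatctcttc
TEAD1 +95.0 kb, chr2:46575457-46575756: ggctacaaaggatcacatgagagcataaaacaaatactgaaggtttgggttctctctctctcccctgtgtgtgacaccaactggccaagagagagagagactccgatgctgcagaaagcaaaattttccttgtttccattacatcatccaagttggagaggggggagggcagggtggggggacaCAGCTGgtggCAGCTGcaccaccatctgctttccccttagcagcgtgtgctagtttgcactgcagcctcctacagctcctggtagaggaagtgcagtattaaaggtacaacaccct
TEAD1 +178.8 kb, chr2:46491640-46491939: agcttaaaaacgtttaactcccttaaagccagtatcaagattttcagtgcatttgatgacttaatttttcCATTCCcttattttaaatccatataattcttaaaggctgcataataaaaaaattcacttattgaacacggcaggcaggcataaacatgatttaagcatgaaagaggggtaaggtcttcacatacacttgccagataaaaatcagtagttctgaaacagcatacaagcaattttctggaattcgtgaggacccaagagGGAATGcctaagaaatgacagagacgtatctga
WWTR1 +22.2 kb, chr13:89867191-89867490: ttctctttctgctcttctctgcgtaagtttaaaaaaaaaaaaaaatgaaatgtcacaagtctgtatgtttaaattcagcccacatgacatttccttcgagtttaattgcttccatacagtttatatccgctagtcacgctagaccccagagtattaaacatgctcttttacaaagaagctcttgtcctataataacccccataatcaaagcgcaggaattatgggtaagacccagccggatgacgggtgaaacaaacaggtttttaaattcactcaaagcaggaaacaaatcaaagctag
The first 4 each held at least 1 E-box and no TEAD motif, the TEAD1 sequence at +178.8 kb held 2 TEAD motifs and no E-box, and the last sequence held neither. Of the 78533 shared regions, 27.1% had the E-box and 20% the TEAD motif in their central 300 bases, against 21 (28.0%) and 14 (18.7%) of the 75 regions of the listed genes. The first 4 are among 14 regions of these genes that were more open in cells with open muscle genes, of which 9 held the E-box. Of all shared regions more open in those cells 61.5% held it. Of the 10 less open regions 5 held the TEAD motif, against 23.6% of all less open ones. A match describes the letters and not a bound site.

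The genes differed in how much open chromatin they held. TEAD1 (chr2:46396490-46670619, minus strand) had 75 regions, 24 of them in all libraries, over 274.1 kb, and WWC1 (chr16:55418391-55595202, minus strand) and WWTR1 (chr13:89742980-89889547, minus strand) had 43 and 40, with 18 and 13 in all libraries. YAP1 (chr9:32811629-32924926, plus strand) had 25 and 6. The short genes had few regions: TEAD2 (chr6:54448183-54462325) 4, TEAD3 (chr7:31337890-31351452) 7, TEAD4 (chr5:67130392-67167579) 7, VGLL2 (chr1:44549407-44557793) 4 and LATS2 (chr11:1225523-1265970) 7, all on the minus strand, and LATS1 (chr1:16274955-16320980, plus strand) 2. Of the 75 shared regions 11 overlapped the 2 kb before a start site (promoters), 10 an exon and 54 lay in introns. TEAD4, with 1 annotated transcript, had no promoter region, and its 7 regions were all intronic. Windows of other annotated genes overlapped those of TEAD1 (LOC110259298 and LOC102164222), TEAD2 (CD37 and DKKL1), YAP1 (LOC102157672) and VGLL2 (LOC110260270), and counts there cannot be assigned to 1 gene.

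Outside WWC1, 57 regions (33.3%) were shared by all libraries, against 29.2% of the regions in any gene window. A further 11.7% were open in both E18 and both E21 libraries alone (8.89% in any gene window), 12.3% in both E18 libraries alone (12.4%) and 1.75% in both E28 libraries alone (2.02%).

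Per kb of covered sequence, TEAD4 had the lowest level of the 10 genes in each library, between 2.13 and 5.28 CPM (counts-per-million of the kept counts of a library) per kb. WWC1 followed with 3.87 to 7.64. LATS1 was the highest in 5 of the 6 libraries, at 8.99 to 15.1 CPM per kb, and TEAD2 was higher than LATS1 in E28 DZ (12.6 against 12.1). The ranges of TEAD1 (4.66 to 10.1), TEAD3 (5.21 to 8.18), YAP1 (7.17 to 12.6), WWTR1 (5.69 to 11.2), VGLL2 (6.95 to 9.41) and LATS2 (6.12 to 12.1) overlapped one another.

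The stage comparison asked whether open chromatin at these genes changed as somites gave way to myotomes. By edgeR the TEAD4 window was the one called, and DESeq2 called 4 of 9, adding TEAD3 (-0.41, adjusted p 0.0459), WWTR1 (0.23, 0.0392) and LATS1 (0.26, 0.00499). It held 6.83 and 3.79 CPM at E18 (ZZ, then DZ), 9.22 and 9.66 at E21, then 13.5 and 16.9 at E28, so the stages did not overlap. The E28 level was 1.51 higher than at E18 on the log2 scale (SE 0.35, edgeR quasi-likelihood test, adjusted p 0.0234), while its covered length went from 3202 and 1764 bp to 2822 and 3209 bp. Without E18 DZ the difference was 1.0 (adjusted p 0.106) and without E28 DZ it was 1.11 (0.0658), so the call rested on these libraries. By edgeR 1 of the 9 tested genes was thus called, where 43.2% of all windows were, and the DESeq2 share of all windows is not given.

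The other TEAD windows were not called by edgeR. TEAD1, broadly expressed in embryonic tissues, held 287.5 and 297.4 CPM at E18, 297.8 and 327.5 at E21, then 273.7 and 304.8 at E28, and the stages overlapped. TEAD2 held 78.4 to 82.5 CPM in the 4 somite libraries and 90.7 and 99.4 at E28, an uncalled difference of 0.19. TEAD3 had 90 and 83.0 CPM at E18, 68.7 and 58.0 at E21, then 56.6 and 78.4 at E28 (log2 difference -0.40 between E28 and E18, not called), so both E18 libraries lay above the 4 later ones. Its covered length went from 16920 and 15929 bp at E18 to 6922 and 9922 bp at E28. Per covered kb it had 5.32 and 5.21 CPM at E18 and 8.18 and 7.90 at E28, the opposite order, which all 10 windows shared.

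Among the coactivators, YAP1 stayed between 96.6 and 117.1 CPM in all libraries. WWTR1 had 162.9 and 166.6 CPM at E18 and 180.5 to 223.9 at the later stages, higher in all 4 later libraries, but the difference of 0.25 between E28 and E18 was not called (adjusted p 0.11). The cofactor VGLL2 had 32.3 to 44.0 CPM with overlapping stages. LATS1 had 29.7 to 32.6 CPM in somites and 39 and 36.1 in myotomes (0.28, adjusted p 0.072), and LATS2 had 20.9 to 33.9. WWC1 had 151.2 and 170.7 CPM at E18, 150.6 and 126.6 at E21, then 106.1 and 113.1 at E28, and it is the gene chosen for that difference (-0.59, SE 0.12, no test). Its covered length fell from 39043 and 33524 bp to 15704 and 14794 bp, and per covered kb its level was 3.87 and 5.09 CPM at E18 and 6.76 and 7.64 at E28, which is higher. Per covered kb both E28 libraries lay above both E18 libraries in all 10 windows, while peaks covered less sequence at E28 genome-wide. The share of all windows with this order is not given. With covered length as an offset the median difference of all windows was 0.54, so the order is not particular to these genes. The median difference between E28 and E18 was 0.01 for the 9 other genes and -0.04 for all windows.

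No window of the 9 was called by edgeR between E21 and E18, where 2.14% of all windows were, nor between E28 and E21, with 6.2% of all windows. An unadjusted p under 0.05 was reached by 1 and 0 of the 9 windows, and DESeq2 called 3 in each comparison. Between E21 and E18 these were LATS2 (-0.42, DESeq2 adjusted p 0.0445), TEAD3 (-0.47, 0.0352) and WWTR1 (0.26, 0.0308). Between E28 and E21 they were LATS1 (0.22, 0.036), LATS2 (0.41, 0.0468) and TEAD2 (0.22, 0.0498). Here and below, percentages of all windows and regions called are those of edgeR. Shares at an unadjusted p or by DESeq2 are not given.

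**Figure D1:**
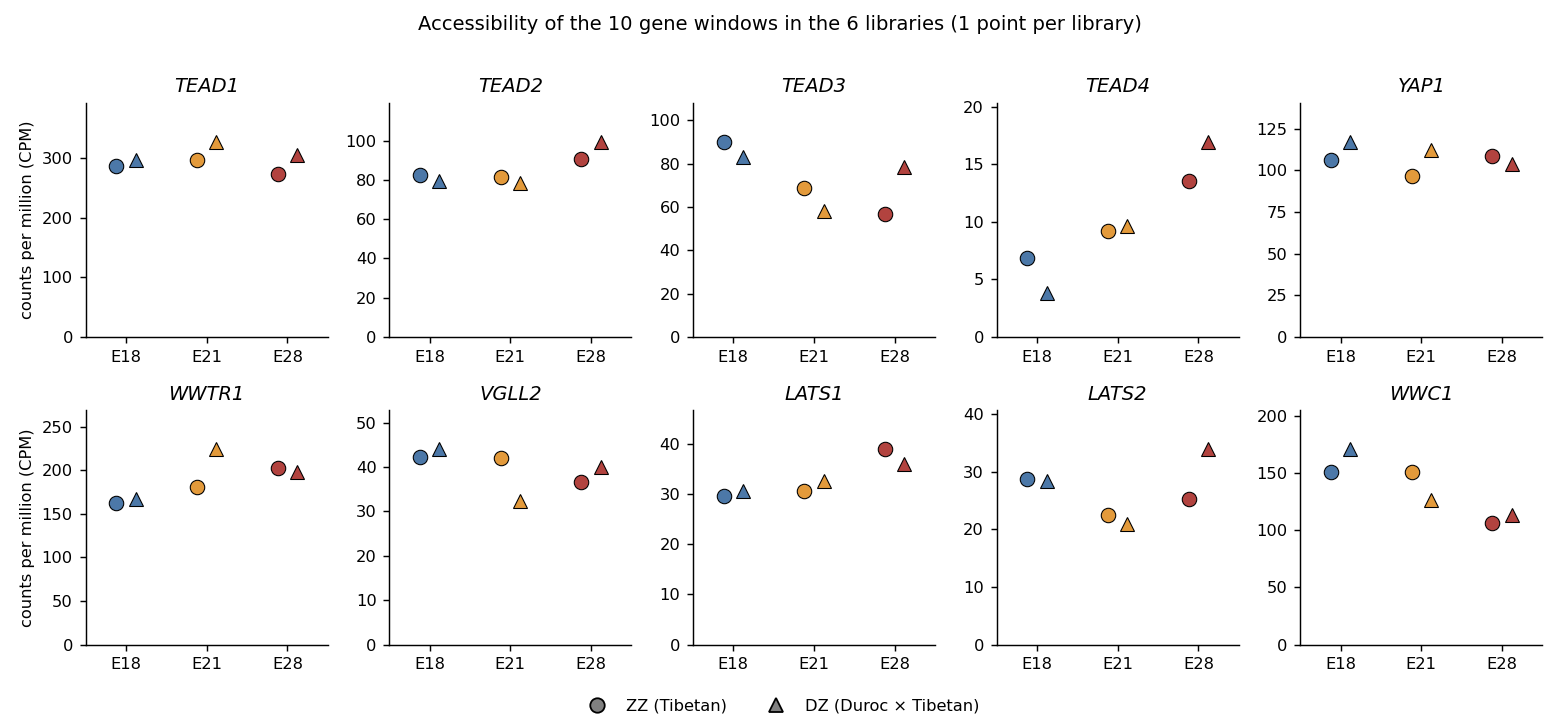
CPM in the windows of the 10 genes (y axis, linear and from 0, with its own scale for each gene) in each of the 6 libraries (x axis: stage, circles for ZZ and triangles for DZ), with 1 point per library. TEAD4 climbs from 6.83 and 3.79 at E18 to 13.5 and 16.9 at E28, WWC1 goes from 151.2 and 170.7 to 106.1 and 113.1 and TEAD1 stays between 273.7 and 327.5.

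Regions were tested in the same way. Of the 57 shared regions of the 9 genes, 11 had a higher and 9 a lower level in E28 than in E18 libraries, against 37.1% of all shared regions called. Of 10 promoters 1 was called (higher), of 41 intron regions 18 (9 higher and 9 lower) and of 6 exon regions 1 (higher). Among all shared regions 40.3% of promoters and 36.7% of regions in gene bodies were called, with medians of 0.07 and -0.08 and interquartile ranges of 0.77 and 1.63. Without E18 DZ 7 of the 57 regions were called and without E18 ZZ 13. TEAD1 held 6 of the 11 higher and 7 of the 9 lower regions, WWTR1 4 and 1, TEAD4 1 higher and YAP1 1 lower, and the other genes held none.

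TEAD1 held regions that moved in opposite directions within 1 gene body. Calls over all shared regions were split as well, with 14929 higher and 14233 lower. The region at +178.8 kb (chr2:46491035-46492693) had 8.55 and 10.9 CPM at E18, 14.0 and 20 at E21, then 23.1 and 30.7 at E28. Its covered length stayed between 1429 and 1629 bp, the stages did not overlap, and it was higher at E28 by 1.42 (SE 0.15, adjusted p 0.00325). The region at +95.0 kb (chr2:46575149-46575996) had 2.86 and 2.38 CPM at E18, 6.59 and 5.78 at E21, then 9.95 and 13.9 at E28 with 612 to 788 bp covered, a rise of 2.14 (SE 0.30, adjusted p 0.0056). The exon region at +199.1 kb had 19.1 and 23.8 CPM at E18 and 33.8 and 40.9 at E28 (0.76, adjusted p 0.006, with 2735 and 2685 bp covered at E18 but 2429 and 2393 bp at E28, and 0.70 and 0.0581 without E18 DZ). The region at +210.6 kb rose by 3.56 (adjusted p 0.0263), but its covered length ranged from 17 to 889 bp and the call was lost without E18 DZ (2.62, adjusted p 0.0761).

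The region of TEAD1 with the largest fall had also lost covered sequence. At +150.7 kb the level was 11.6 and 12.9 CPM at E18, 12.7 and 16.7 at E21, then 2.94 and 2.96 at E28, a difference of -2.10 (edgeR adjusted p 0.00315), while 3921 and 3868 bp were covered at E18, 4611 and 5476 at E21, then 773 and 526 at E28. With an offset for covered length the difference of the same region was 0.52, where the median of all regions was 0.43. The other 6 called lower regions of TEAD1 had differences between -0.77 and -1.21, and of these covered length is given only for that at +21.3 kb. That at +21.3 kb, with 2584 and 2376 bp covered at E18 but 1242 and 1521 bp at E28, stayed below 0 with the offset (-0.27, adjusted p 0.324), and its call was lost without E18 DZ (0.114) or E18 ZZ (0.0759).

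TEAD1 was also the gene with the called promoter, at its first start site (+0.7 kb from the gene's start to the region's centre). It had 39.4 and 39.2 CPM at E18, 47.6 and 48.5 at E21, then 54.6 and 64.6 at E28, and the stages did not overlap (0.55, SE 0.11, adjusted p 0.0147), but the call was lost without E18 DZ (0.43, adjusted p 0.115). Among regions with covered lengths within 1.5 times the difference of this promoter was 0.31 (edgeR adjusted p 0.0424). There the TEAD1 regions at +178.8, +95.0 and +199.1 kb had 1.17, 1.9 and 0.51. With covered length as an offset the promoter had 0.65, against a median of 0.43 for all regions. The other promoters were not called. The inner start site of TEAD1 at +45.9 kb had the largest difference but a wide error (0.68, SE 2.44). The promoter of YAP1 ran from 54.9 to 67.9 CPM, that of WWTR1 from 57.0 to 67.2, that of TEAD3 from 53.4 to 69.5 and that of VGLL2 from 22.4 to 28.3, with differences of 0.15, -0.07, 0.10 and -0.08 between E28 and E18. TEAD2 had 58.1 to 61.7 CPM in somites and 71.2 and 80.6 in myotomes (0.31, adjusted p 0.0662).

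WWTR1 had 4 intron regions called as rising from E18 to E28 and 1 as falling, and its promoter was not called. The gene had 13 shared regions, and 37.1% of all shared regions were called in either direction. Peaks lay in both E18 libraries alone in 4 of its intron regions and in both E28 libraries alone in 1. Both E18 and both E21 libraries alone had 5 such regions, and both E21 and both E28 libraries alone had 2. WWTR1 as a whole had 28644 and 25113 bp covered at E18 but 18083 and 19154 bp at E28. At +22.2 kb (chr13:89866497-89867803) it had 1.54 and 1.17 CPM at E18, 12.2 and 19.1 at E21, then 13.1 and 8.82 at E28, with 749 and 476 bp covered at E18 against 992 to 1307 bp later. E18 stood apart from both later stages. The rise was 2.96 from E18 to E28 (SE 0.37, adjusted p 0.00433) and 3.47 from E18 to E21 (SE 0.38, adjusted p 0.0193), and with covered length as an offset it was 2.19 and 2.34. The E21 call was lost without E18 DZ (3.19, adjusted p 0.0781), E21 DZ (2.85, 0.256) or E21 ZZ (4.03, 0.115). Further regions at +94.4, +54.2 and +108.5 kb were higher at E28 by 2.36, 1.61 and 0.85, and that at +128.4 kb was lower (-2.13, adjusted p 0.00816). The last had 1046 and 965 bp covered at E18 but 303 and 457 bp at E28, and with covered length as an offset the 4 differences were 1.79, 1.22, 0.45 and -0.72. The first 3 were no longer called without E18 DZ (adjusted p 0.0811, 0.0992 and 0.18), nor the region at +108.5 kb without E18 ZZ (0.081) or E28 ZZ (0.113).

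The TEAD4 intron region at +31.3 kb (chr5:67135649-67136598) had 0.586 and 0.473 CPM at E18, 3.05 and 2.46 at E21, then 4.84 and 8.31 at E28. The 3 stages followed one another without overlap, and E28 was above E18 by 3.58 (SE 0.44, adjusted p 0.00421). Peaks covered 396 and 262 bp at E18 and 725 to 950 bp later, and the difference with covered length as an offset was 2.19. In YAP1 the region at +4.7 kb was the 1 called, with 6.76 and 8.03 CPM at E18 and 4.32 and 3.55 at E28 (-0.95, SE 0.25, adjusted p 0.032), over 696 and 672 bp before and 535 and 555 bp after. It was not called without E18 ZZ (adjusted p 0.127), E18 DZ (0.265), E21 ZZ (0.0676), E21 DZ (0.0652) or E28 DZ (0.092).

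**Figure D2:**
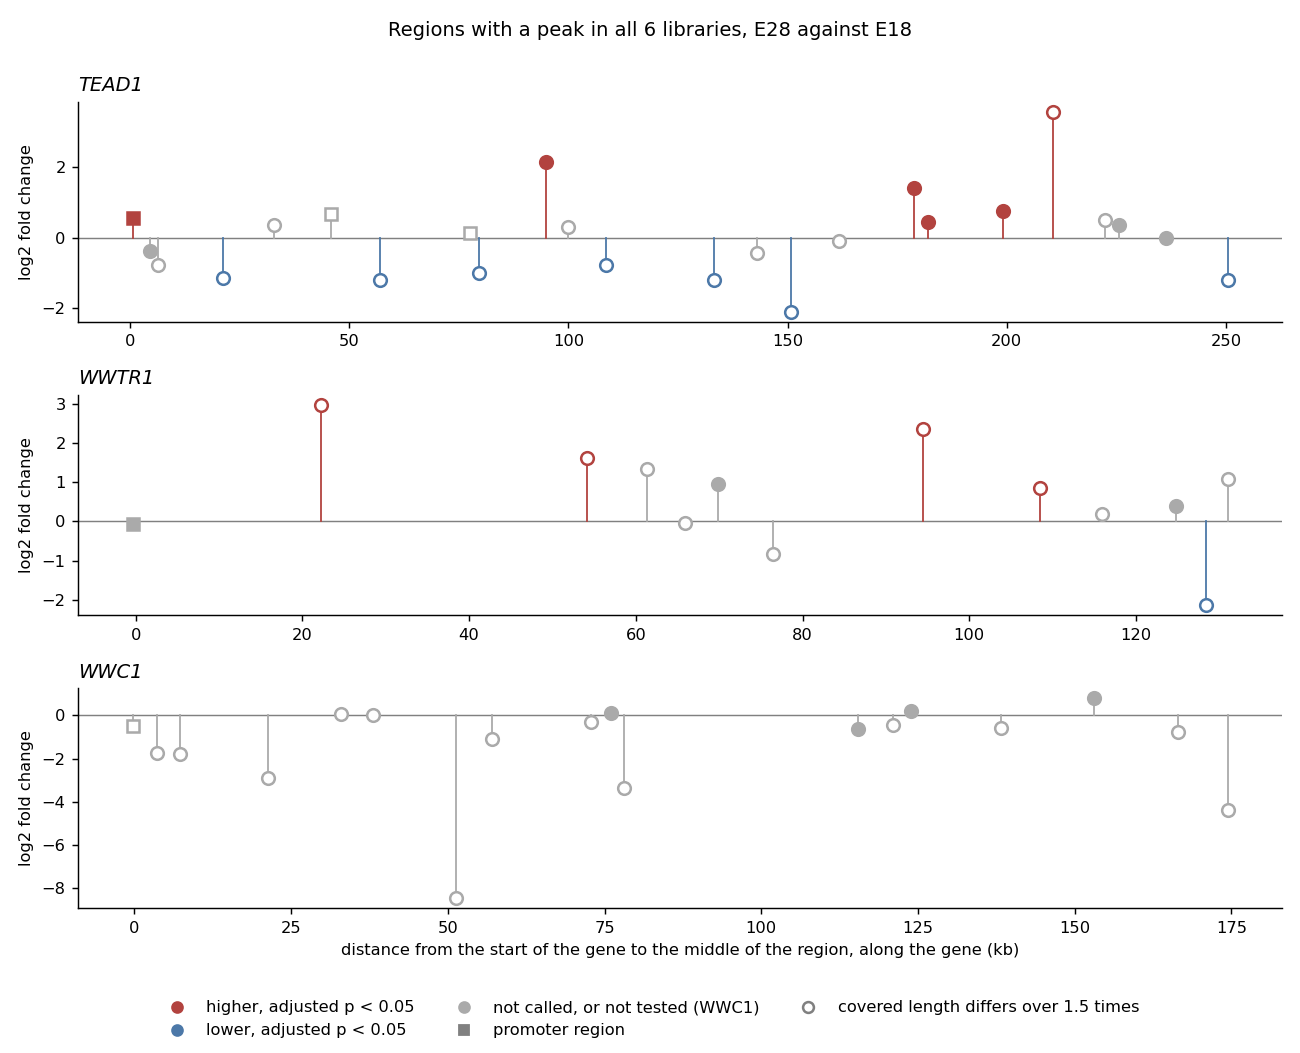
Log2 difference between E28 and E18 (y axis) of each shared region of TEAD1, WWTR1 and WWC1 against its distance in kb from the gene's start (x axis), where red is called higher, blue called lower, squares are promoters and open symbols are regions whose covered length differed more than 1.5 times. WWC1 is in grey because it was not tested, and TEAD1 has regions on both sides of 0, from -2.10 at +150.7 kb to 3.56 at +210.6 kb, and WWTR1 runs from -2.13 to 2.96.

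5 of the 57 regions were higher at E21 than at E18 and 0 lower, against 6.59% of all shared regions called, and all 5 were introns of TEAD1 (+178.8, +182.0 and +210.6 kb), WWTR1 (+22.2 kb) and TEAD4 (+31.3 kb). Each of these calls was lost without E18 DZ (adjusted p 0.0781 to 0.362), E21 ZZ (0.115 to 0.184) or E21 DZ (0.256 to 0.336), and those at +178.8, +182.0 and +31.3 kb also without E18 ZZ (0.128, 0.0829 and 0.0881). Between E28 and E21, 2 regions were higher and 1 was lower, all in TEAD1 (+178.8, +199.1 and +150.7 kb), against 7.13% of all regions. All 3 were lost without E21 ZZ (adjusted p 0.228 to 0.267) or E21 DZ (0.19 to 0.229), and those at +178.8 and +199.1 kb also without E18 DZ (0.0736 and 0.0697), E18 ZZ (0.0675 and 0.0631) or E28 DZ (0.0973 and 0.0666).

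In WWC1, the gene chosen for its lower level at E28, 5 of the 18 shared regions had a log2 difference above 0, with a median of -0.61. The region by which it was chosen, at +51.3 kb (chr16:55543491-55546180), had 8.60 and 9.87 CPM at E18, 5.36 and 5.01 at E21, then 0 and 0.0507 at E28. Its covered length was 2690 and 1963 bp at E18 but 2 and 52 bp at E28, so the last values rest on slivers of sequence. Its promoter had 16.7 and 17.6 CPM at E18 and 13.4 and 11.5 at E28. The intron region at +153.1 kb went the other way, with 16.8 and 20.9 CPM at E18, 22.3 and 23.5 at E21, then 31.8 and 35.1 at E28 over 1451 to 1608 bp.

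Library totals mix all cells, and fewer cells of a type cannot be told apart from less signal per cell. The summed windows of marker lists moved with stage as well. The 11 neural progenitor genes had 507 and 556 CPM at E18 and 290 and 333 at E28, the 9 endothelial genes 275 and 290 against 166.7 and 165.2, the 9 epithelial genes 397 and 390 against 180 and 175, and the 6 cardiac genes 315 and 277 against 115 and 176. The 13 muscle genes had 281 to 431 CPM, highest in E28 DZ, and the 11 fibroblast and mesenchyme genes 468 to 566 in somites and 659 and 600 in myotomes. The 9 sclerotome and cartilage genes moved less, with 512 and 498 CPM at E18 and 483 and 464 at E28. No gene of these lists was at 0 in every library, and their part in the stage differences was not tested. The covered length of the marker windows is not given.

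Breed was compared with stage in the model. Neither the 10 windows nor the 75 shared regions held a call between DZ and ZZ by edgeR, and DESeq2 called 0 as well. Of all windows 0.00442% were called and of all regions 0.0%. An unadjusted p under 0.05 was reached by 0 windows and 7 regions. The window differences ran from -0.12 (TEAD4) to 0.14 (TEAD1 and WWTR1). TEAD1 was the gene that was higher in DZ at each of the 3 stages, by 0.05, 0.14 and 0.16. TEAD3 went both ways, lower in DZ at E18 and E21 (-0.12 and -0.25) and higher at E28 (0.47), and with 1 library per stage and breed that change of direction was not tested.

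The muscle comparison asked in which cells of a library these genes were open. Cells were classed by counts in the windows of fixed marker genes, none of which is among the 10 genes or shares a peak with them. A cell entered the muscle class when at least 3 of 13 muscle windows (such as those of MYOD1, MYOG and DES) held a count and their sum was at least 3 times that of an average cell of its depth, and cells that met this for more than 1 list were left out. The class held 1942 cells: 158 and 90 at E18, 212 and 207 at E21, then 388 and 887 at E28, or 0.893% to 9.39% of a library. It is a range of a score and not a cell type, and 2210 cells lay within 20% of the limit. Counts were summed per library, and class and other cells of a library shared its peaks, so that covered length was the same on both sides.

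4 of the 10 windows were higher and 1 was lower in the muscle class, where 14.6% of all windows were called. TEAD4 differed most. Its level was 6.2, 54.2 and 72.2 CPM (lowest, median and highest of the 6 libraries) in the class and 3.79, 8.21 and 10.9 CPM in other cells, higher in the class in 6 of 6 libraries, a difference of 2.43 (SE 0.22, adjusted p 2.21e-05). The 2 groups overlapped only through E18 DZ, where the class had 6.2 CPM from 5 counts, while it had 15.5 CPM in E18 ZZ. TEAD3, a paralog with the same DNA-binding domain, had 88.0, 143.4 and 208.3 CPM in the class and 52.3, 64.1 and 89.8 in other cells (1.14, SE 0.19, adjusted p 0.00169). VGLL2, the TEAD cofactor of muscle, had 37.2, 62.6 and 90.1 CPM against 31.5, 38.0 and 44.1 (0.77, SE 0.17, adjusted p 0.00902). It was higher in the class in 4 of 6 libraries and lower in both E18 libraries. Its call was lost without E21 DZ (0.70, adjusted p 0.0546) or E28 ZZ (0.70, 0.0518). TEAD2 had 95.2, 99.7 and 142.9 CPM against 77.6, 81.6 and 94.0, and its 2 groups did not overlap (0.38, SE 0.08, adjusted p 0.00559). That call was lost when the limit of the class was set to 2 or 4 times the average (0.27 and 0.34, adjusted p 0.0533 and 0.0695).

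TEAD1 did not share this difference. It had 244, 292 and 339 CPM in the class and 274, 297 and 327 in other cells (0.01, not called). The coactivators were not called by edgeR either, while DESeq2 called 7 of the 10 windows, adding YAP1 (-0.19, adjusted p 0.0438) and WWTR1 (0.18, 0.0221). For DESeq2 the share of all windows is not given. YAP1 had 83.4, 91.7 and 108 CPM in the class and 96.9, 108 and 117 in other cells, lower in 6 of 6 libraries (-0.18), and WWTR1 was 0.18 higher, in 5 of 6 libraries. LATS1 and LATS2 differed by -0.01 and -0.08. WWC1 was lower in the class in 6 of 6 libraries, with 66.5, 120 and 144 CPM against 108, 139 and 171 (-0.32, SE 0.10, adjusted p 0.0381), and the call was lost without E21 ZZ (adjusted p 0.0744), E21 DZ (0.0687), E28 ZZ (0.125) or E28 DZ (0.153), with a class limit of 2 times (0.206) and with 4000 to 60000 counts per barcode (0.0818). The median over the 10 genes was 0.1, and over all windows it was -0.03.

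**Figure D3:**
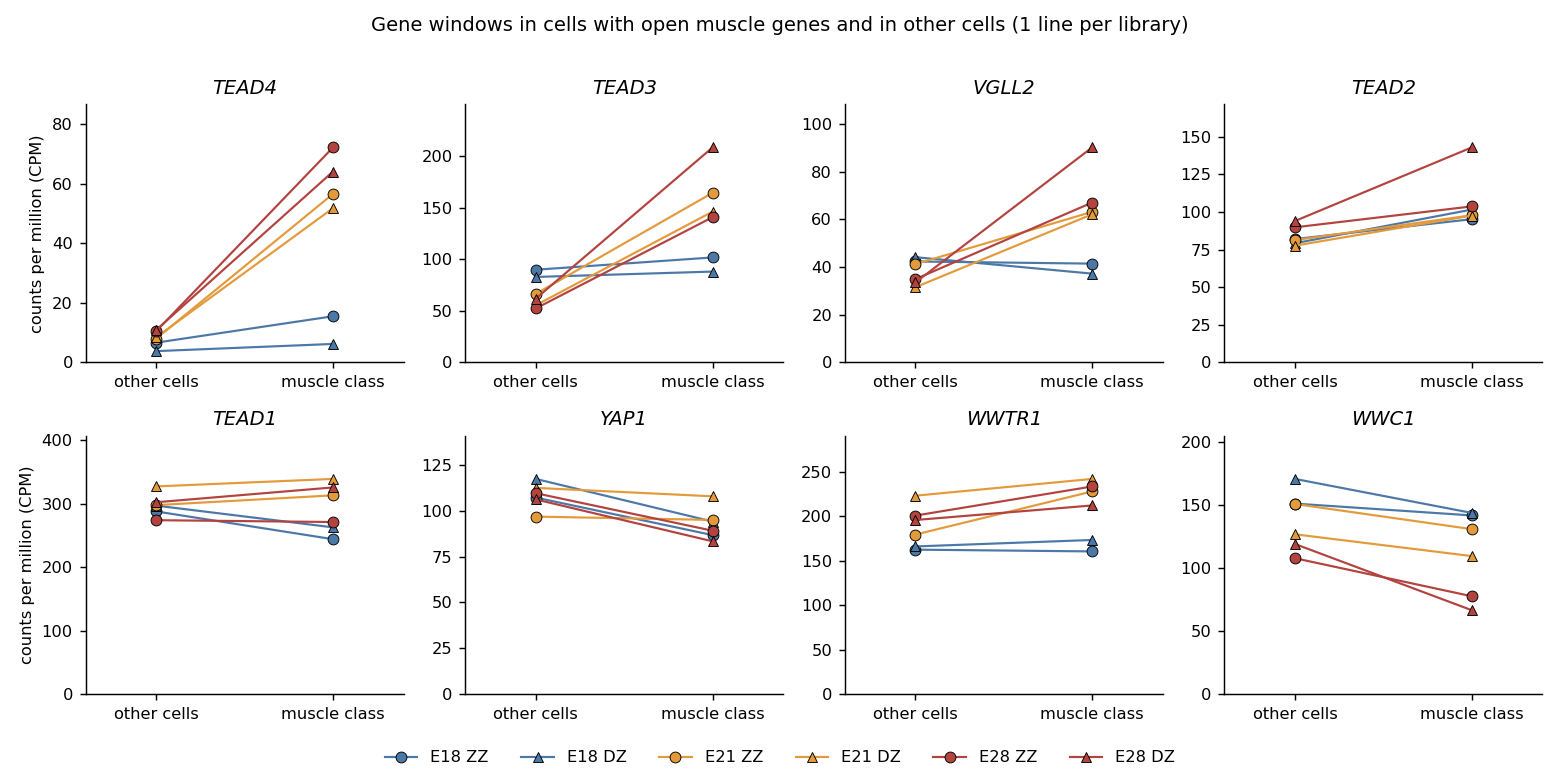
CPM of 8 gene windows (y axis, linear and from 0, with its own scale for each gene) in muscle-class cells and in the other cells of the same library (x axis), where each line joins the values of 1 library, circles are ZZ and triangles DZ. TEAD4 (medians 8.21 and 54.2) and TEAD3 (64.1 and 143.4) are higher in the class in each library, TEAD1 (297 and 292) runs flat and WWC1 (139 and 120) is lower.

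The difference between muscle-class and other cells was itself larger at E28 than at E18 in 3 of the 10 windows, where 12.3% of all windows were called. This test was added after the values were seen. For TEAD3 the log2 ratio of class to other cells was 0.18 and 0.09 at E18, 1.3 and 1.4 at E21, then 1.43 and 1.75 at E28, and the E28 difference exceeded that of E18 by 1.52 (SE 0.17, edgeR adjusted p 1.61e-09). For TEAD4 it was 1.23 and 0.71 at E18, 2.82 and 2.62 at E21, then 2.78 and 2.56 at E28 (1.63, SE 0.37, adjusted p 0.00134), where the E18 class values rest on 24 and 5 counts and those of E28 on 318 and 699. For VGLL2 it was -0.03 and -0.25 at E18, 0.61 and 0.98 at E21, then 0.94 and 1.43 at E28 (1.37, SE 0.23, adjusted p 1.06e-05). In all 3 genes both E18 libraries lay below the 4 later ones. The genes were named for this call, so the order at E18 and E28 is no separate support. The share of all windows with this order is not given. Of all shared regions 10.3% were called, 5972 with a larger and 2118 with a smaller difference at E28, and the median was 0.21. Among the 75 shared regions of the 10 genes 13 had a larger and 4 a smaller difference, with a median of 0.42, so both sets leaned the same way. The larger ones included the promoters of TEAD3 (1.63, adjusted p 1.3e-09), VGLL2 (2.0, adjusted p 3.12e-07), TEAD1 at its first start site (0.75, adjusted p 0.0266) and WWTR1 (0.59, adjusted p 0.0388). The smaller ones lay in WWC1 (2), TEAD1 (1) and WWTR1 (1), and the 13 shared regions of WWTR1 had a median of -0.74. WWC1, chosen for its stage difference, is in these counts, and its values here are a description. Of its 18 regions 1 had a larger and 2 a smaller difference, and its window (-0.45) was not called. The region values were not recomputed without single libraries.

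The muscle signal of the class itself moved the same way. The summed windows of 12 sarcomere and excitation-contraction genes that did not define the class (such as TTN, NEB and RYR1) had log2 ratios of class to other cells of 0.15 and 0.28 at E18, 0.92 and 1.1 at E21, then 1.03 and 1.31 at E28, and 9 and 7 of the 12 genes were higher in the class at E18 against 10 or 11 later. The part of this in the 3 differences was not tested. With a limit of 4 times the average, which left 32 and 24 cells at E18, TEAD3 stayed called (2.17) and TEAD4 (0.20, adjusted p 1.0) and VGLL2 (1.15, adjusted p 0.132) did not.

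Regions showed where in the genes these differences lay. Of the 75 shared regions 14 were higher and 10 lower in the muscle class, against 21.0% of all shared regions called. Of 11 promoters 4 were called, each higher, of 10 exon regions 2, with 1 in each direction, and of 54 intron regions 18, with 9 in each direction. Among all shared regions 10.1% of promoters and 24.0% of regions in gene bodies were called. The count was between 13 and 29 of the 75 without 1 library.

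The 4 promoters belonged to TEAD3, TEAD2, VGLL2 and an inner start site of TEAD1. That of TEAD3 had 66.9, 144 and 191 CPM in the class and 50.8, 57.4 and 59.4 in other cells, so the groups did not overlap (1.17, SE 0.20, adjusted p 0.000609). That of TEAD2 had 72.5, 81.8 and 120 CPM against 57.5, 60.6 and 75.7 (0.47, SE 0.10, adjusted p 0.00323), but the call was lost with a class limit of 4 times (0.32, 0.263). That of VGLL2 had 14.9, 45.4 and 61.0 CPM against 21.7, 25.4 and 28.3 (0.71, adjusted p 0.0423). In VGLL2 the 2 E18 values of the class, 21.4 and 14.9 CPM, lay below those of other cells and the 4 later values, 43.9 to 61.0 CPM, above them, and the call was lost without E21 ZZ (adjusted p 0.135), E21 DZ (0.187), E28 ZZ (0.134) or E28 DZ (0.175), and with DESeq2 (0.0756). The inner start site of TEAD1, +77.5 kb into the gene, was higher by 0.96 (adjusted p 0.0439) and was not called without E21 ZZ (0.137), E21 DZ (0.114), E28 ZZ (0.194) or E28 DZ (0.166), nor with a class limit of 4 times, where it fell to 0.3 (0.754). The promoters of YAP1, WWTR1, LATS1, LATS2 and WWC1 and the first promoter of TEAD1 were not called.

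All 3 shared regions of TEAD4 were higher in the class. At +31.3 kb (sequence above) it had 2.59, 22.6 and 35.5 CPM in the class and 0.466, 2.20 and 4.81 in other cells (3.11, SE 0.27, adjusted p 1.84e-06). By library the class had 2.59 and 3.72 CPM at E18, 30.8 and 15.9 at E21, then 29.3 and 35.5 at E28, above the other cells in each. The whole TEAD4 window held only 24 and 5 counts in the class at E18, so the E18 values rest on few counts. At +3.6 kb it had 2.48, 15.7 and 23.5 CPM against 1.34, 3.07 and 4.06 (2.40, SE 0.28, adjusted p 3.74e-05). At +13.9 kb the difference was 2.04 (adjusted p 0.015), with no count in the class in either E18 library, and it was lost without E21 DZ (1.56, 0.124), E28 ZZ (1.77, 0.108) or E28 DZ (2.08, 0.051).

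WWTR1, not called as a window, held intron regions of both kinds. The regions at +65.9 and +69.8 kb, 2 neighbours in the gene body, had 2.59, 11.2 and 16.6 CPM and 3.24, 12.2 and 21.1 CPM in the class, against 1.04, 1.5 and 2.41 and 1.18, 1.73 and 2.67 in other cells. The groups did not overlap in either, and the differences were 2.75 (SE 0.40, adjusted p 0.000227) and 2.68 (SE 0.37, adjusted p 0.000133). The region at +22.2 kb, which rose between E18 and E21 in the whole libraries, was lower in the class, with 1.01, 2.24 and 5.92 CPM against 1.18, 11.0 and 19.4 (-1.83, SE 0.37, adjusted p 0.00244). In other cells, which were most of each library, it had 1.55 and 1.18 CPM at E18 and 9.74 to 19.4 later, close to the whole libraries.

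TEAD1 was alike in holding both. The region at +95.0 kb had 4.96, 18.1 and 36.9 CPM in the class and 2.36, 5.92 and 10.8 in other cells (1.58, SE 0.22, adjusted p 0.000144). It rose with stage in both, from 6.48 and 4.96 to 26.1 and 36.9 CPM in the class and from 2.84 and 2.36 to 9.14 and 10.8 CPM in other cells between E18 and E28. The region at +178.8 kb had 0, 8.42 and 12.2 CPM in the class and 8.51, 17.3 and 33.1 in other cells (-1.26, SE 0.29, adjusted p 0.00603). The other cells had 8.51 and 10.9 CPM at E18, 14.1 and 20.5 at E21, then 23.7 and 33.1 at E28. The muscle class was at most 9.39% of a library, so these values nearly repeat those of the whole libraries. They do not show in which cells the rise lay, and the class values by stage are not given. The exon region at +199.1 kb was lower in the class too, at 6.32, 9.95 and 14.9 CPM against 19.1, 26.9 and 45.4, without overlap (-1.49, SE 0.25, adjusted p 0.000607).

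YAP1 had no region that was higher in the class and 2 that were lower, at +4.7 kb (-1.25, adjusted p 0.0269) and +84.8 kb (-1.10, adjusted p 0.0146). WWC1 had 4 lower regions of 18 and none higher. That at +153.1 kb, which went up with stage and was named after its values were seen, had 8.88, 14.3 and 22.3 CPM in the class and 16.7, 23.1 and 37.8 in other cells (-0.82, SE 0.19, adjusted p 0.00691). It stayed called in each of the other 12 settings run for it, between -0.69 and -1.15 (adjusted p 0.00152 to 0.0422). The other 3, at +33.0, +57.1 and +72.9 kb, were not called without E21 ZZ (0.0627, 0.0623 and 0.0565) or E28 ZZ (0.158, 0.0601 and 0.0521), nor the first 2 without E21 DZ (0.137 and 0.0594) and the first without E18 DZ (0.0626) or E28 DZ (0.149). LATS1 had 1 higher region, in an exon at +7.9 kb (1.48, adjusted p 0.0309), and LATS2 had none in either direction. The YAP1 and LATS1 calls were each lost without E21 ZZ (-1.06 and adjusted p 0.0953 for +4.7 kb, -1.06 and 0.0553 for +84.8 kb, 1.57 and 0.063 for LATS1) and without E28 DZ (-1.13 and 0.101, -0.79 and 0.07, 1.23 and 0.182), and the +4.7 kb and LATS1 calls also without E21 DZ (0.0763 and 0.118) and the latter without E28 ZZ (0.182). With a class limit of 2 times both YAP1 regions had -0.56 (0.178 and 0.0862) and the WWC1 regions at +33.0, +57.1 and +72.9 kb had -1.04, -1.01 and -0.68 (0.0666, 0.116 and 0.157), with none called. With 4 times the LATS1 region (1.33, 0.0942) and that of WWC1 at +33.0 kb (-1.56, 0.104) were not called.

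**Figure D4:**
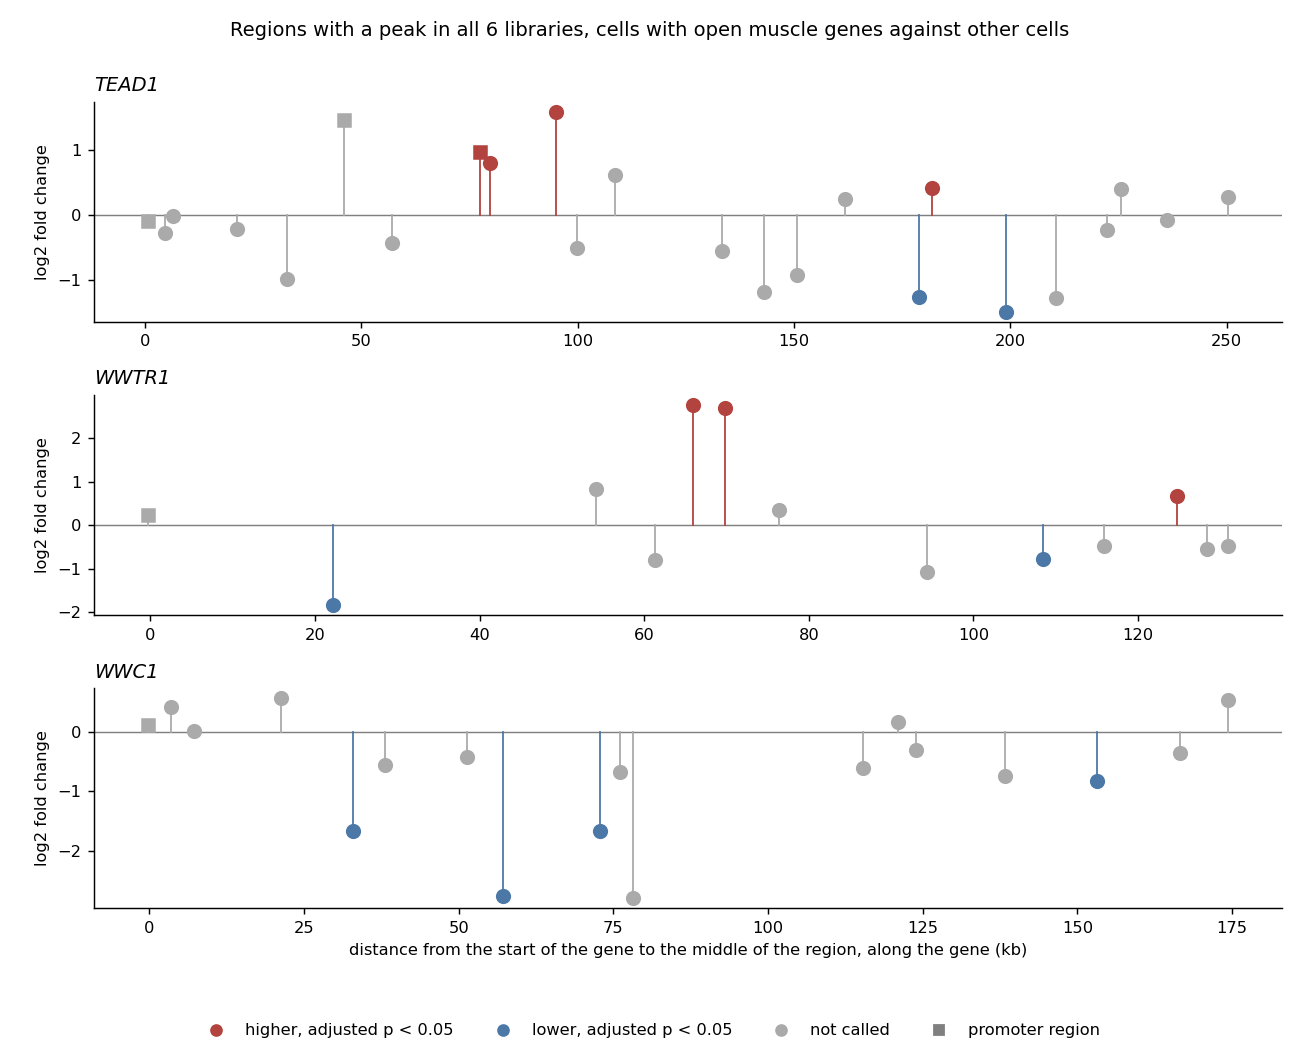
Log2 difference between muscle-class and other cells (y axis) of the shared regions of TEAD1, WWTR1 and WWC1 against the distance in kb from the gene's start (x axis), with regions called higher in red, called lower in blue and promoters as squares. WWTR1 reaches 2.75 and 2.68 at +65.9 and +69.8 kb and -1.83 at +22.2 kb, TEAD1 has 1.58 at +95.0 kb and -1.49 at +199.1 kb, and the called regions of WWC1 all lie below 0.

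The letters of the called regions were counted with no test. Of the 14 higher regions 9 held the E-box CAGCTG in their central 300 bases and 0 held the TEAD motif, and of the 10 lower regions 2 held the E-box and 5 the TEAD motif. Among all shared regions the E-box was in 61.5% of the 8175 regions higher in the class, 16.2% of the 8344 lower and 24.0% of the 62014 not called, and the TEAD motif in 24.9%, 23.6% and 18.9% of these, so that over all regions the TEAD motif was about as frequent among higher as among lower ones. Between E28 and E18, 3 of the 11 higher and 2 of the 9 lower regions held the E-box, and among all shared regions 28.5% and 28.1% did.

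The same comparison was made for 6 further classes of cells, chosen after the data were seen, with 804 to 1343 cells each. TEAD3 was lower in endothelial cells (-0.48, adjusted p 0.0119; 14.1% of all windows called), with 28.5, 51.6 and 92.8 CPM in the class. It was also lower in the fibroblast and mesenchyme class (-0.51, adjusted p 0.0274; 1.08% called) and the sclerotome and cartilage class (-0.46, adjusted p 0.0325; 2.69% called), and both of the latter calls were lost without E21 DZ (adjusted p 0.0981 and 0.205), E28 ZZ (0.151 and 0.183) or E28 DZ (0.405 and 0.245), and the last also without E18 ZZ (0.0594). DESeq2 called neither (0.0547 and 0.112), and with a class limit of 4 times both were lost (-0.97 and -0.72, 0.753 and 0.389), the last also with 2 times (-0.33, 0.055). At E18 (ZZ, then DZ) TEAD3 had 94.3 and 49.3 CPM in the fibroblast and mesenchyme class and 67.9 and 113 in the sclerotome and cartilage class. Cells outside the muscle class had 89.8 and 82.8. The other cells of these comparisons included the muscle class, where TEAD3 was higher. Of the regions in the sclerotome and cartilage class 1 was called, the TEAD3 promoter (-0.61, SE 0.15, adjusted p 0.00575), with 2.58% of all regions called. WWTR1 was higher in that class, at 168, 238 and 325 CPM (0.38, SE 0.09, adjusted p 0.00359), but not without E28 ZZ (0.34, adjusted p 0.0682) or with a class limit of 4 times (0.31, 0.625). WWC1 was higher in the neural progenitor class, at 135, 235 and 318 CPM (0.77, SE 0.11, adjusted p 3.51e-06; 9.25% called), and this class held 23 and 35 cells at E28. It was lower in endothelial cells (-0.33, adjusted p 0.0116), as was VGLL2 (-0.34, adjusted p 0.0386), whose call was lost in 5 of the 6 fits without a library (adjusted p between 0.0554 and 0.117, with E18 ZZ the exception) and with class limits of 2 and 4 times (-0.15 and -0.42, 0.226 and 0.148). The neuron and epithelial classes had no call by edgeR or DESeq2 among the 10 windows, with 4 and 3 at an unadjusted p under 0.05 and 0.721% and 1.04% of all windows called.

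In the endothelial class intron regions of TEAD1, WWTR1 and LATS2 were higher than in other cells. The TEAD1 region at +21.3 kb had 16.8, 23.4 and 32.3 CPM in them and was higher by 1.51 (SE 0.21, adjusted p 1.51e-06), where 12.2% of all regions were called. The WWTR1 region at +76.4 kb had 9.32, 13.3 and 44.1 CPM (1.54, SE 0.26, adjusted p 3.79e-05) and the LATS2 region at +16.4 kb had 2.21, 13.9 and 27.7 CPM (1.22, SE 0.27, adjusted p 0.00159). 8 regions were lower, among them the TEAD3 promoter (-0.59, adjusted p 0.000497) and the TEAD4 regions at +31.3 and +3.6 kb (-1.95 and -1.59). The whole TEAD4 window held only 94 counts in the endothelial class over all libraries and was not called (-0.74, edgeR adjusted p 0.229). In the neural progenitor class 6 of the 75 regions were higher and 4 lower, where 13.7% of all regions were called. WWC1 held 5 of the higher ones: the exon region at +121.0 kb (1.54, adjusted p 0.000105), the intron region at +21.3 kb (1.41) and 3 others with differences of 0.90 to 1.12. The other was a TEAD1 exon region at +4.6 kb (1.04, adjusted p 0.0217). The lower ones were the regions of WWC1 at +33.0 kb (-2.48, adjusted p 0.00743), TEAD4 at +31.3 kb (-3.24, 0.0099), WWTR1 at +108.5 kb (-1.52, 0.000315) and TEAD1 at +225.5 kb (-1.04, 0.0479). The whole TEAD4 window held only 56 counts in this class over all libraries and was not called (-0.45, edgeR adjusted p 0.459). Region values of these further classes were not recomputed without single libraries.

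**Figure D5:**
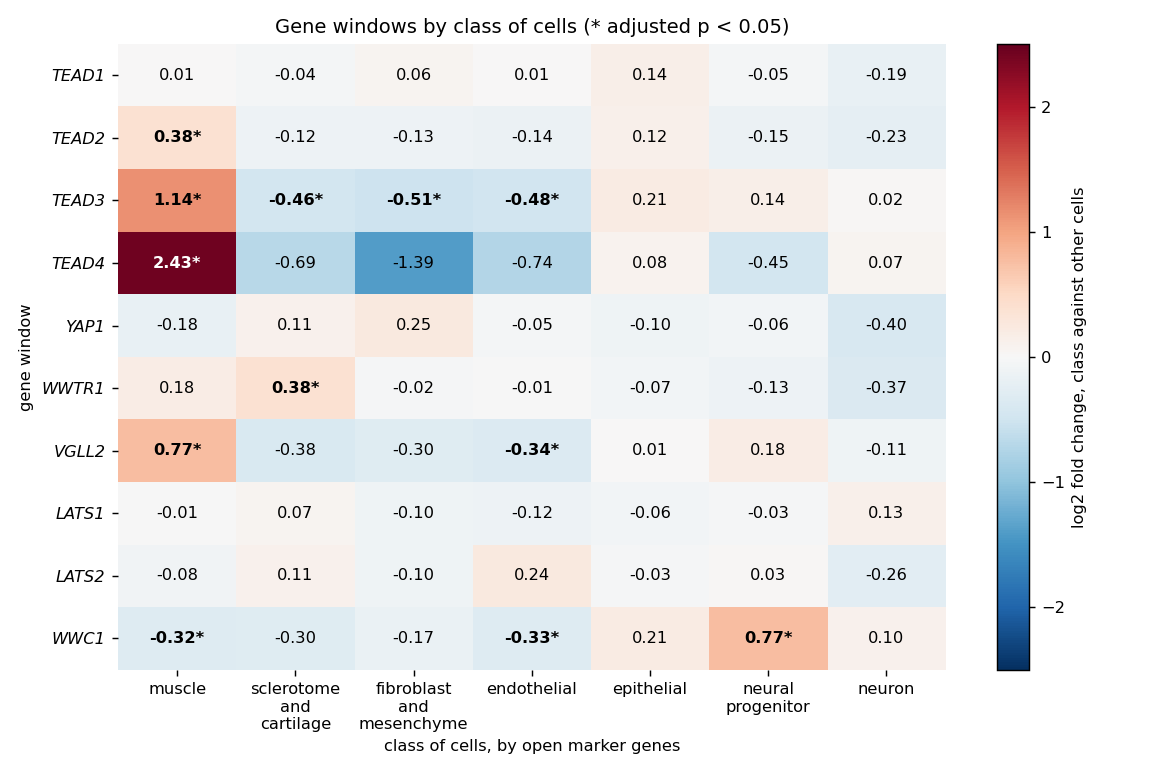
Log2 difference between each of 7 classes of cells and the other cells (colour) for the windows of the 10 genes (rows); columns are the classes and asterisks mark calls. TEAD4 in the muscle class (2.43) is the largest value, TEAD3 is higher there (1.14) and lower in endothelial, fibroblast and sclerotome cells, and WWC1 is highest in neural progenitor cells (0.77).

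Other genes of the pathway were described from 4 lists. Between E28 and E18, 4 of 12 core kinases and scaffolds were higher and 0 lower, with 43.2% of all windows called: STK4, the MST1 kinase, with 40.5 and 38.2 CPM in E18 somites and 75.3 and 94.0 in E28 myotomes (1.06, adjusted p 0.00602), the tumour suppressor NF2 (0.85), and the upstream kinases TAOK3 (0.65) and TAOK1 (0.35). Of 16 regulators at the cortex and junctions 4 were higher (among them RASSF1 0.62, FAT4 0.48 and FRMD6 0.47) and 2 lower, the LIM protein AJUBA (-0.61) and the phosphatase PTPN14, which binds YAP1 (-1.76, adjusted p 0.00514). PTPN14 had 60.3 and 61.2 CPM at E18 and 15.1 to 20.9 later, but 19390 and 18690 bp were covered at E18 and 2913 to 6639 bp later, and with covered length as an offset its difference was 0.91, against a median of 0.54 for all windows. No other vestigial-like cofactor of 3 was called. Of 15 target genes TGFB2 was higher (0.79) and AXL (-0.74), NT5E (-0.73), ARHGEF17 (-0.49) and ASAP1 (-0.33) lower. Each of these 6 lower genes of the lists had less covered sequence in both E28 than in both E18 libraries, such as AXL with 9427 and 8546 bp before and 4931 and 5330 bp after. Of the higher genes, FRMD6 (0.18, adjusted p 0.219), TAOK1 (0.34), FAT4 (0.42) and NF2 (0.53) lay below the median of all windows (0.54) with covered length as an offset, and TAOK1 (0.06, adjusted p 0.607) and FAT4 (0.19, adjusted p 0.0924) were not called among windows with covered lengths within 1.5 times. The medians of the 4 lists were 0.17, 0.22, 0.11 and 0.08, against -0.04 for all windows. Without E18 DZ the calls of NF2 (adjusted p 0.0611), TAOK3 (0.0679), TAOK1 (0.178), RASSF1 (0.0711), FAT4 (0.0834), FRMD6 (0.0896), AJUBA (0.073), TGFB2 (0.06), NT5E (0.103), ARHGEF17 (0.0675) and ASAP1 (0.136) were lost, and without E18 ZZ those of TAOK1 (0.137), FRMD6 (0.0562), FAT4 (0.0924), AXL (0.0522) and ASAP1 (0.12). TAOK1 was called in none of the fits that left out a library (0.0502 to 0.178), and ASAP1 was not called without E28 ZZ (0.0831).

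In the muscle class, ANKRD1, a target gene active in muscle, was higher by 1.68 (adjusted p 0.017) and IGFBP3 by 0.58, and DLC1 was lower (-0.47). The cofactor VGLL3 was higher (0.53, adjusted p 0.00978), as were the atypical cadherin FAT1 (0.59) and LIMD1 (0.56), while DCHS1 (-0.35), PTPN14 (-1.14) and STK4 (-0.33) were lower. LIMD1, DLC1 and FAT1 stayed called without any 1 library, but FAT1 (0.38, adjusted p 0.0969), ANKRD1 (1.32, 0.0624), STK4 (-0.18, 0.227), PTPN14 (-0.81, 0.0752) and DCHS1 (-0.22, 0.0818) were not called with a class limit of 2 times, nor VGLL3 with 4 times (0.35, 0.138). ANKRD1 was not called without E21 ZZ (1.46, adjusted p 0.0754), E21 DZ (1.68, 0.057) or E28 ZZ (1.36, 0.0746), nor VGLL3 and IGFBP3 without E28 ZZ (0.0594 and 0.0604). The lower calls of STK4, PTPN14 and DCHS1 were lost without E21 DZ (0.088, 0.0668 and 0.0981) or E28 ZZ (0.096, 0.0697 and 0.115), those of PTPN14 and DCHS1 also without E21 ZZ (0.0517 and 0.076) and those of STK4 and DCHS1 also without E28 DZ (0.12 and 0.0922). These lists held 2 higher and 1 lower of 15 target genes, 1 and 0 of 3 cofactors, 2 and 2 of 16 regulators and 0 and 1 of 12 kinases and scaffolds, where 14.6% of all windows were called in either direction, with list medians between -0.01 and 0.06 and -0.03 for all windows.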

How the data were processed

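Single-cell ATAC-seq was analysed in 6 libraries. The authors aligned reads to Sscrofa11.1 with Cell Ranger ATAC, called peaks and cell barcodes per library, and deposited raw counts of Tn5 cut sites per peak and barcode, with no normalization and no peak score. The submitters' processing notes also name Seurat 3.1.1 and Signac 0.2.2. Counts exist only inside the peaks of the library in question, so a sum over a region moves with the length called.

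Barcodes with 2000 to 30000 counts were kept (58809 of 64439), with 256 of them in the first 100 counts above the lower limit and 269 barcodes in the 100 below it. No doublet caller was run, and the upper limit was the only guard. Peaks with 1 bp or more in common formed a region, and windows received every peak they overlapped. Levels are counts-per-million (CPM) of the kept counts of a library.

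Stages and breeds were tested over all windows and over all 78533 shared regions with edgeR 4.0.16 (quasi-likelihood, TMM, filterByExpr, R 4.3.3), with terms for stage and breed and 2 residual degrees of freedom. Cell classes were compared on counts summed per library, with library as a block, and cells were never replicates. Fold changes are log2, standard errors were derived from the F statistic, and calls needed a Benjamini-Hochberg adjusted p under 0.05 over all features. Alternatives were DESeq2 1.42.0, RLE size factors, no low-count filter, no breed term, 4000 to 60000 counts per barcode, covered length as an offset, covered lengths within 1.5 times, limits of 2 and 4 times for the classes, and each library left out.

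The genes, gene lists and marker lists were chosen with earlier results of these data known. Named were all 10 genes, their promoters, up to 3 called regions per gene and contrast (a region named for 1 contrast is also given in others), and up to 5 called genes per pathway list and contrast. The WWC1 region at +153.1 kb was named outside this rule. The other 6 cell classes, the comparison of the muscle difference between stages and the 12 muscle genes were added after seeing the data. Of 93 marker genes 89 were annotated. CCN1 and CCN2 were matched as CYR61 and CTGF. RNA-seq from the same study was not analysed here.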

Additional observations from a re-analysis of the deposited data

Results flagged for a closer look

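For 3 windows the difference between muscle-class cells and the other cells of the same library was larger at E28 than at E18 by a test of the interaction itself (edgeR, adjusted over all windows). On the log2 scale the excess was 1.52 for TEAD3, 1.63 for TEAD4 and 1.37 for VGLL2. With a class limit of 4 times the average TEAD3 stayed called, and TEAD4 (0.20, adjusted p 1.0) and VGLL2 (1.15, adjusted p 0.132) were not. In each gene both E18 libraries had a smaller ratio of class to other cells than both E28 libraries, which restates the call and is no separate support. The 12 muscle genes not used for the class had log2 ratios of 0.15 and 0.28 at E18 against 1.03 and 1.31 at E28, and their part in the 3 differences was not tested. Covered length also differed between stages in these windows, and no alternative with covered length was run for this test.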

How the results depend on the processing

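Counts of calls moved by more than 1.5 times under these alternatives. For windows between E28 and E18 (1 of 9 called) the count was 2 with 4000 to 60000 counts per barcode, 4 with DESeq2, 8 with covered length as an offset and 0 of the 2 testable windows with covered lengths within 1.5 times, and 0 to 1 without a library (0 without E18 DZ). Between E21 and E18 (0) it was 3 with DESeq2 and 0 to 2 without a library, and between E28 and E21 (0) it was 3 with DESeq2, 5 with the offset and 0 to 1 without a library. For regions between E28 and E18 (20 of 57) it was 35 with the offset and 8 of 20 testable regions with covered lengths within 1.5 times, and 7 to 21 without a library. Between E21 and E18 (5) it was 3 with 4000 to 60000 counts, 11 with DESeq2, 9 with the offset, 3 with no breed term and 0 to 13 without a library, and between E28 and E21 (3) it was 13 with DESeq2, 22 with the offset and 0 to 13 without a library. For the muscle class, windows (5 of 10) went to 3 with a limit of 2 times and to 3 to 5 without a library, and regions (24 of 75) to 13 to 29. The 6 other classes (7 of 60) had 11 and 3 calls with limits of 2 and 4 times and 4 to 8 without a library, and the muscle difference between stages (3 of 10) had 5, 1 and 3 to 4. The breed counts were 0 under each alternative run. The cause of these moves was not tested, other than the fewer features tested where stated. Shares of all windows and regions called under each alternative are not given, so these counts do not set the listed genes apart. The offset moved the medians of all features as well, as given below.

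The offset raised the median log2 difference between E28 and E18 from -0.04 to 0.54 over all windows and from -0.02 to 0.43 over all regions (0.33 for regions between E28 and E21), so a change of sign under it is read against these medians. Under it the TEAD1 region at +150.7 kb had 0.52 (E28 against E18) and 0.70 (E28 against E21). The windows of PTPN14, ARHGEF17 and ASAP1 had 0.91, 0.88 and 0.68, above the median, and those of AJUBA, AXL and NT5E had 0.44, 0.06 and 0.24, which is above 0 but below the median. Over single genes and regions 840 of the alternative values kept their call and direction, 200 kept the direction and lost the call, and these 8 changed sign. No paired analysis by replicate number was possible because each stage and breed had 1 library, so replicate numbers pair nothing. The stage fits instead had a term for breed, and the class fits paired class and other cells by library. Few cells stand behind some class values, such as 90 muscle-class cells in E18 DZ, 23 neural progenitor cells in E28 ZZ and 21 epithelial cells in E28 DZ.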

Other observations

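Across 51 pairs of cell class and library with at least 50 cells, the windows whose log2(CPM + 1) followed that of VGLL2 most closely were LOC110261082 (Pearson r 0.783), COL20A1 (0.759), MYBPH (0.72), PAX7 (0.714) and TTN (0.704), out of 19248 windows. PAX7 marks muscle progenitors and TTN and MYBPH encode proteins of the sarcomere. The pairs share libraries and depth, and the correlations are a description.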
